A study of Mus musculus with 4 samples.

Results

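The RFP- luminal cells of the intact anterior prostate lobe (AP) were compared with those of the dorsolateral lobe (DLP) in 3 droplet-based scRNA-seq runs. The adult mice were older than 8 weeks, on an outbred ICR (CD-1) background, and carried the P2-*Runx1*:RFP reporter, in which RFP reads out the proximal P2 promoter of *Runx1*; mice of both comparison groups were not castrated and carried the same reporter. Lobes were microdissected and pooled over mice within a run, sorted as EPCAM+ RFP-, and tagged with a MULTI-seq barcode per lobe before loading, so that each run holds AP and DLP cells of the same mice in 1 library. The sort took basal and luminal cells together.

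A cell was a member when it had 750 to 7500 detected genes, under 10% mitochondrial UMIs, and 1 dominant MULTI-seq barcode of intact AP RFP- or intact DLP RFP-. It also had at least 1 *Epcam* UMI, no *Ptprc* UMI, at least 5 UMIs of *Krt8* and *Krt18* together and under 3 of *Krt5* and *Krt14* together per 10000 UMIs. Of 19148 cell barcodes in the series, 11674 came from the adult runs, 8533 of these were within the quality limits, and 512 were members. AP gave 297 members (87, 159 and 51 in runs 1, 2 and 3) and DLP gave 215 (36, 87 and 92). The median number of UMIs per member was 11194 in AP of run 3 and between 18520.5 and 22272 in the other 5 groups. The limit of 7500 was put on detected genes, whereas the methods of the study word it as a limit on UMIs. Put on UMIs it left 8, 19 and 22 AP cells and 5, 13 and 17 DLP cells in runs 1, 2 and 3, and edgeR's test of runs 2 and 3 then called 0 of 1140 genes (31 at an unadjusted p under 0.05; DESeq2 was not run on those cells). Members shared no cell barcode between libraries. Counts were summed per lobe and run, and levels are given as counts per 1000000 UMIs of a sum (CPM). Fewer cells of a kind and less RNA per cell cannot be told apart in such sums.

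The gate chose the keratins, and their levels are a description. *Krt18*, the simple-epithelium keratin of luminal cells, was at 1783, 1509 and 1323 CPM in AP and at 1502, 1270 and 1452 CPM in DLP in runs 1, 2 and 3. *Krt8*, its partner, was at 897, 547 and 374 CPM in AP and at 1071, 853 and 637 CPM in DLP. The basal keratin *Krt5* stayed between 1.53 and 7.42 CPM in all 6 sums. The members nearest to the limit had 5.13 UMIs of *Krt8* and *Krt18* per 10000 in AP and 5.33 in DLP, and the nearest cells outside it had 4.84 and 4.90.

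Luminal cells line the prostatic ducts and secrete the proteins of the seminal fluid under the control of androgens. In mice the lobes make different secretions. *Tgm4* encodes the transglutaminase that cross-links the copulatory plug, *Pbsn* probasin, *Msmb* beta-microseminoprotein, and *Sbp* and *Spink1* the spermine-binding protein and a protease inhibitor that are abundant in the ventral lobe. The seminal vesicle, a gland next to the prostate, makes the clotting proteins encoded by the *Svs* genes.

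The members of both lobes divided into classes by these secretory genes, with little overlap (at most 7 cells of a lobe in any 2 classes). The limits for *Tgm4*, *Svs* and *Sbp* were set after the data were seen. Cells with at least 20 *Tgm4* UMIs per 10000, called Tgm4-high here, made up 78.1% of AP members (232 of 297, 95% Wilson interval 73.1 to 82.4%) and 57.2% of DLP members (123 of 215, 50.5 to 63.6%). By run, their share was 80.5%, 80.5% and 66.7% in AP and 47.2%, 52.9% and 65.2% in DLP. The lobes differed most in runs 1 and 2 and were nearly level in run 3. In AP of run 3, members that were not Tgm4-high had a median of 6990 UMIs, against 21002.5 in the Tgm4-high ones. There, 14 of 51 members fell in none of the classes given here. The effect of this depth on the share was not tested. Only 6 AP and 5 DLP cells lay within 2-fold of the limit.

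Cells with at least 20 *Msmb* UMIs per 10000 made up 14.0% of DLP members (30 of 215, interval 9.95 to 19.2%) and 1.35% of AP members (4 of 297, 0.525 to 3.41%). In DLP they were 0 of 36, 11 of 87 and 19 of 92 cells in runs 1, 2 and 3. Run 1 held none in either lobe, which allows a share of up to 3.45% of its 87 AP cells and 8.33% of its 36 DLP cells (3 counts). Of these cells, 7 in DLP and 1 in AP were also Tgm4-high.

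A further class carried seminal vesicle transcripts. Cells with at least 50 UMIs of *Svs2*, *Svs4* and *Svs5* per 10000, called Svs-high here, numbered 6, 11 and 7 in DLP (24 of 215, 11.2%, interval 7.62 to 16.1%) and 1, 0 and 0 in AP (1 of 297, 0.337%, 0.0595 to 1.88%). No member lay within 2-fold of this limit, and no Svs-high cell was Tgm4-high, Msmb-high, Sbp-high or *Krt4*/*Psca*-positive. The summed level of the 9 seminal vesicle and mesonephric markers was 91337, 56355 and 28444 CPM in DLP and 3977, 10.3 and 10.2 CPM in AP, and it was 13.6, 12.9 and 296 CPM in DLP once the Svs-high cells were left out. *Svs5* itself was at 60835, 34337 and 15666 CPM in DLP. Whether these cells came from seminal vesicle tissue in the DLP dissection was not tested. In its adult data the study found a cluster of mesonephric derivatives, marked by *Svs2* and *Pax2*. It carried only the prostate epithelial clusters forward. The gate used here has no such step, so the Svs-high cells stay among the DLP members and in the main sums. Whether they belong to that cluster was not tested.

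Cells with a ventral secretion (at least 500 *Sbp* UMIs per 10000) were 29 of 297 in AP and 22 of 215 in DLP, or 9.76% and 10.2%. By run they were 3.45%, 13.8% and 7.84% in AP and 8.33%, 18.4% and 3.26% in DLP, higher in DLP in runs 1 and 2 and in AP in run 3. Without run 2 the shares were 5.07% and 4.69%, and without run 3 they were 10.2% and 15.4%. Their median number of UMIs was 45543 and 43343, against 20273 and 17424 in the remaining members. Cells with at least 3 UMIs of *Krt4* and *Psca*, keratin 4 and a surface antigen of the proximal ducts, were 13, 5 and 0 in AP and 8, 7 and 0 in DLP. The last class was therefore absent from both lobes of run 3, which allows a share of up to 5.88% in AP and 3.26% in DLP. Members in none of the 5 classes were 7.74% in AP and 6.51% in DLP. In AP of run 3 they were 27.5% (14 of 51), against 1.15% to 8.70% in the other 5 groups, and without run 3 the shares were 3.66% in AP and 4.88% in DLP. All these intervals cover counting error only.

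**Figure D1:**
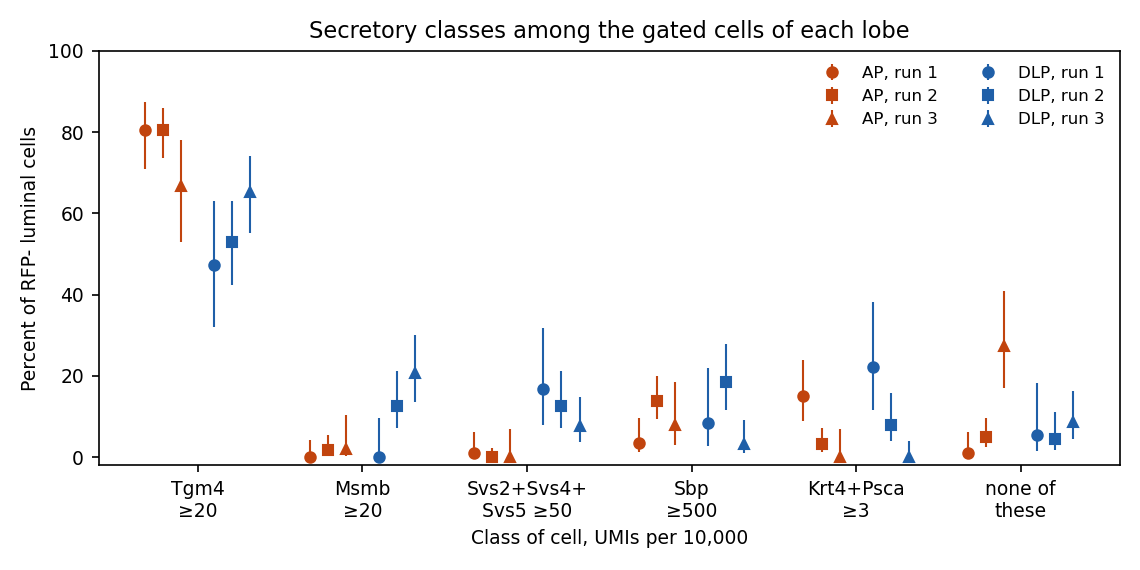
Percent of RFP- luminal cells (y axis) in each class (x axis, limits in UMIs per 10000), by lobe (orange AP, blue DLP) and run (circle 1, square 2, triangle 3). Bars are 95% Wilson intervals. Tgm4-high cells lead in both lobes, and Msmb-high and Svs-high cells are mostly DLP cells.

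Over 8548 genes tested between the lobes with edgeR's quasi-likelihood test, 38 were higher in AP (0.445% of the genes tested) and 46 were higher in DLP (0.538%) at an adjusted p under 0.05. With run as a block, which pairs the lobes of the same mice, 121 were higher in AP (1.42%) and 225 in DLP (2.63%), and all 84 genes of the unblocked test were among them. Leaving out the Svs-high cells, a step chosen after the data were seen, gave 27 genes higher in AP (0.324% of 8333) and 13 higher in DLP (0.156%) without the block, and 121 (1.45%) and 182 (2.18%) with it. Of the 46 genes higher in DLP, 14 were then no longer detected well enough to test. Of the 32 still tested, 30 kept their direction and 10 passed, or 20 with the block. All 38 genes higher in AP kept their direction and 24 passed, or 38 with the block. Within the Tgm4-high cells alone, also chosen after the data were seen, 33 genes were higher in AP (0.488% of 6756) and 80 in DLP (1.18%), and 152 (2.25%) and 265 (3.92%) with the block. Without run 2 the unblocked test called 2 genes higher in AP and 1 in DLP, and without run 3 it called 2 and 4. Without run 1 it called 22 and 46.

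The genes higher in AP included secreted enzymes, complement proteases, glycan enzymes and a WNT antagonist. The rule that picked the 12 largest changes took only genes past the threshold, higher in AP in every run and at a mean of at least 50 CPM there. Their AP and DLP sums did not overlap, which held for 13.7% of all genes tested.

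*9530003J23Rik*, a lysozyme family gene (Lyzf1 in RefSeq) next to *Lyz2* on chromosome 10, was at 1828, 1076 and 1169 CPM in AP and at 4.62, 59.3 and 4.83 CPM in DLP. All AP sums stood far above the DLP sums, and the highest DLP sum was in run 2. The log2 fold change was 5.56 (SE 0.94, adjusted p = 0.0356, and 0.00225 with the block). Within Tgm4-high cells it was 4.90 (adjusted p = 0.00983).

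*C1s2* and *C1rb* are duplicate genes of the complement proteases C1s and C1r and lie 43453 bases apart on chromosome 6. *C1s2* was at 270, 214 and 269 CPM in AP and at 33.5, 24.5 and 16.6 CPM in DLP (log2 fold change 3.23, SE 0.27, adjusted p = 0.00285). *C1rb* was at 1887, 1150 and 1304 CPM in AP and at 366, 305 and 351 CPM in DLP (log2 fold change 1.93, SE 0.20, adjusted p = 0.00489). Both stood apart in every run, and both passed in Tgm4-high cells, at 2.57 and 1.29. Each has a close copy nearby (*C1s1*, *C1ra*), so reads of the copies may be shared.

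*Glb1l3*, a beta-galactosidase-like gene on chromosome 9, was at 472, 306 and 385 CPM in AP and at 63.5, 57.2 and 85.3 CPM in DLP (log2 fold change 2.34, SE 0.21, adjusted p = 0.00285). Its neighbour *Glb1l2*, 11484 bases away and of the same family, went the other way. *Glb1l2* was at 13.1, 8.99 and 11.1 CPM in AP and at 20.8, 23.5 and 36.5 CPM in DLP (log2 fold change -1.49, SE 0.27, adjusted p = 0.0467). In Tgm4-high cells both passed, at 1.73 for *Glb1l3* and -2.08 for *Glb1l2*. Svs-high cells held 3.03% of the DLP UMIs of *Glb1l2* and none of *Glb1l3*.

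The sequences before the starts of 5 of these genes are given for reference. The 4 AP genes were taken because 2 of them are neighbours and because all passed in Tgm4-high cells, and *Azgp1*, described below among the DLP genes, for the other side. They are RefSeq promoter windows of GRCm38.p6, cut before the earlier of the RefSeq and GENCODE starts and written 5′ to 3′ on the gene's strand. Capitals mark the letters AGAACA or their reverse complement TGTTCT, the core half-site of the androgen response element.
9530003J23Rik, chr10:117238704-117238931, minus strand: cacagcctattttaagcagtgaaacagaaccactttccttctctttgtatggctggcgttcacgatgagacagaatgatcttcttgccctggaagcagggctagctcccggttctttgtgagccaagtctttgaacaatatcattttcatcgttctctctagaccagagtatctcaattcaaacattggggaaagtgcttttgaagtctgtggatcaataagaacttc
C1rb, chr6:124570180-124570293, plus strand: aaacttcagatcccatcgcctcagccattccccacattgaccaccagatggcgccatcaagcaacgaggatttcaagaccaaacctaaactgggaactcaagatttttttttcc
C1s2, chr6:124636086-124636335, minus strand: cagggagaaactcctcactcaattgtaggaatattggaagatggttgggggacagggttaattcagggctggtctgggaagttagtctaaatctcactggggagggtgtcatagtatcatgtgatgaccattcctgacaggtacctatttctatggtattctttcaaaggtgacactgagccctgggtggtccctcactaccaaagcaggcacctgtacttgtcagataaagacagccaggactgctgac
Glb1l3, chr9:26860891-26861073, minus strand: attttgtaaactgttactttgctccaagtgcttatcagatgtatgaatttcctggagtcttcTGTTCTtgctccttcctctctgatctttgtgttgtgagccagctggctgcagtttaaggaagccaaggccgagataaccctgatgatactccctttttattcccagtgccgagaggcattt
Azgp1, chr5:137981271-137981519, plus strand: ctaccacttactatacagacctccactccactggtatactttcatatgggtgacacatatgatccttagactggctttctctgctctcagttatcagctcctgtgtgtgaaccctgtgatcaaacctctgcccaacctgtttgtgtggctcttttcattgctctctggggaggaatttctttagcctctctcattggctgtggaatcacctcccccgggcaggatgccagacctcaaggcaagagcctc

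Within these windows the letters occurred once, before *Glb1l3*. In the 250 bases before the RefSeq start they occurred on either strand in 18.2% of 27025 genes, in 3 of the 25 called AP genes with a promoter in the table (12%), and in 7 of 32 called DLP genes (21.9%). A match is a run of letters and not a site of binding.

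*Tmod4*, *Scnm1* and *Lysmd1* are adjacent on chromosome 3 (95124476 to 95139518 over the 3 genes, GRCm38), with 326 and 76 bases between them, and all 3 were higher in AP. *Tmod4*, a tropomodulin of actin filaments, was at 96.0, 71.9 and 60.3 CPM in AP and at 18.5, 7.66 and 11.8 CPM in DLP (log2 fold change 2.53, SE 0.26, adjusted p = 0.00393). *Scnm1*, a splicing factor gene on the opposite strand, had a log2 fold change of 1.87 (SE 0.23, adjusted p = 0.0096). *Lysmd1*, named for its position and under 50 CPM on average, had a log2 fold change of 2.27 (SE 0.28, adjusted p = 0.00884). *Tmod4* and *Lysmd1* lie on the plus strand and *Scnm1*, between them, on the minus strand. Whether any transcript is shared between these genes was not tested.

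*Nkd1*, an antagonist and target of WNT signalling, was at 90.9, 59.0 and 43.6 CPM in AP and at 15, 2.55 and 3.76 CPM in DLP (log2 fold change 3.31, SE 0.47, adjusted p = 0.0191). It was the one called member of 28 tested in the list of WNT, FGF, BMP and hedgehog genes, whose median log2 fold change was -0.14 against -0.01 over all genes; with the block 5 others were higher in DLP. *Fut9*, a fucosyltransferase, was at 153, 211 and 236 CPM in AP and at 47.3, 54.1 and 58.0 CPM in DLP (log2 fold change 1.78, SE 0.27, adjusted p = 0.0207), the one called of 21 Golgi and glycan enzymes (median -0.01). *Fgl1*, a secreted fibrinogen-like protein, was at 290, 279 and 179 CPM in AP and at 67.0, 81.2 and 102 CPM in DLP (log2 fold change 1.42, adjusted p = 0.025). These 3 genes were higher in AP in each run.

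The remaining genes of the 12 were *Pnliprp1*, *Bcas3* and *Gm37223*. *Pnliprp1*, a pancreatic lipase-related gene, was at 267, 158 and 236 CPM in AP and at 70.4, 15.3 and 44.5 CPM in DLP (log2 fold change 2.28, adjusted p = 0.0481). *Bcas3* was nearly constant within each lobe, at 62.9, 62.4 and 67.7 CPM in AP and at 11.5, 11.7 and 13.4 CPM in DLP (log2 fold change 2.23, SE 0.21, adjusted p = 0.00285). The long noncoding RNA *Gm37223* was at 1035, 1125 and 1273 CPM in AP and at 271, 316 and 325 CPM in DLP (log2 fold change 1.78, adjusted p = 0.0156).

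**Figure D2:**
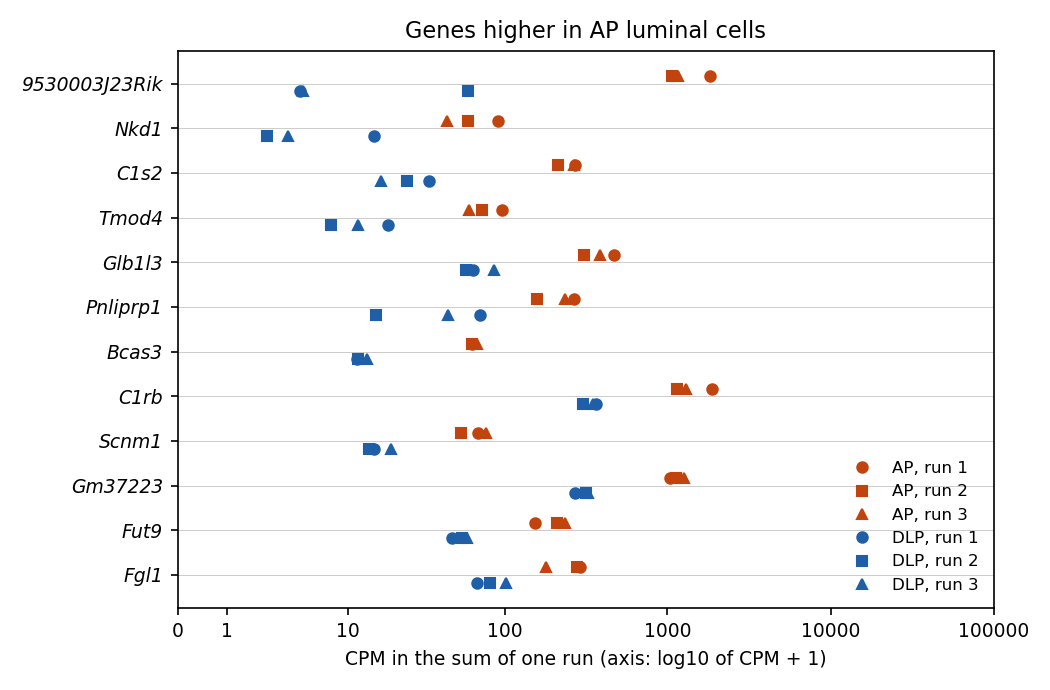
CPM (x axis, spaced by the log10 of CPM + 1) of the 12 genes (y axis) with the largest log2 fold change towards AP, in the sums of AP (orange) and DLP (blue) of runs 1 (circle), 2 (square) and 3 (triangle). No gene overlaps between the lobes, and *9530003J23Rik* spans 1076 to 1828 CPM in AP and 4.62 to 59.3 CPM in DLP.

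Some AP genes were at low counts. *3100003L05Rik*, a long noncoding RNA, had 170 UMIs in AP and 3 in DLP, a ratio of 40.2 in CPM over all runs (exact interval 13.5 to 197). *Gpha2*, a glycoprotein hormone subunit, had 128 and 3 UMIs (ratio 30.3, 10.1 to 149), and *Rhoj*, a small GTPase, had 94 and 2 (ratio 33.3, 8.97 to 279). These intervals cover counting error only, and these 3 genes were chosen for their low counts after their values were seen.

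The 46 genes higher in DLP fell into those read mostly from Svs-high cells and those that were not. *Svs2*, a seminal vesicle clotting protein, was at 6494, 1612 and 1296 CPM in DLP and at 18.3, 0 and 0 CPM in AP (log2 fold change -9.27, SE 1.49, adjusted p = 0.0292). Svs-high cells held 99.96% of its DLP UMIs. The Svs-high cells were chosen with this gene, and its value is a description of them.

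*Nefh*, a neurofilament gene, had 655 UMIs in DLP and 1 in AP, a ratio of 924 in CPM (exact interval 165 to 36536). Its levels were 143, 206 and 68.7 CPM in DLP, and Svs-high cells held 99.8% of the UMIs. *Svs6* had 403 UMIs in DLP and 3 in AP (ratio 189, 64.4 to 922), all of the former in Svs-high cells. *Svs1* had 165 UMIs in DLP and 0 in AP, at least 77.6-fold higher in DLP when AP is set to 3 counts over the group. The exact intervals of *Nefh* and *Svs6* cover counting error only, and they take UMIs of the same few cells as independent.

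Several genes that are not named for the seminal vesicle followed the same cells. *Cd52*, a small surface glycoprotein of lymphocytes and of the male genital tract, was at 3444, 2100 and 2819 CPM in DLP and at 310, 113 and 109 CPM in AP (log2 fold change -4.17, SE 0.39, adjusted p = 0.00285). Svs-high cells held 88.9% of its DLP UMIs, and without them the log2 fold change was -1.54 (adjusted p = 0.41). In Tgm4-high cells it was -1.34 (adjusted p = 0.0224). *Cdo1*, cysteine dioxygenase, was at 1061, 574 and 430 CPM in DLP and at 69.2, 3.70 and 12.1 CPM in AP, with 93.7% of the DLP UMIs in Svs-high cells. The membrane protein gene *Shisa4* (98.0%), the prostaglandin transporter gene *Slco2a1* (86.5%), *Cenpm* (88.9%) and *Bpgm*, bisphosphoglycerate mutase (90.4%), were alike in this respect. *Bpgm* went from a log2 fold change of -3.01 to 0.10 without the Svs-high cells, and *Gstm2*, a glutathione transferase with 63.8% of its DLP UMIs there, went from -1.54 to -0.19.

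Of the 10 hematopoietic markers, 2 were tested and *Cd52* was called. *Ptprc* was at 0 by the gate, *Cd3d* was at 0 in AP and *Coro1a* at 0 in DLP. The summed hematopoietic markers ranged from 114 to 318 CPM in AP and from 2189 to 3447 CPM in DLP. In both lobes these sums were mostly *Cd52*, whose levels are given above, and the other markers added little. Without the Svs-high cells the DLP sums ranged from 157 to 625 CPM.

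*Mgll*, monoglyceride lipase, was at 53.1, 52.1 and 88.0 CPM in DLP and at 4.57, 8.20 and 4.64 CPM in AP (log2 fold change -3.48, SE 0.33, adjusted p = 0.00285). Svs-high cells held 45.5% of its DLP UMIs, and without them it was at -2.70 (adjusted p = 0.106).

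*B2m*, the light chain of MHC class I, was at 5336, 3697 and 4396 CPM in DLP and at 2123, 1299 and 1251 CPM in AP (log2 fold change -1.69, SE 0.24, adjusted p = 0.02). Svs-high cells held 43.5% of its DLP UMIs. Without them the log2 fold change was -1.02 (adjusted p = 0.0917, and 0.00058 with the block). It was the one called of 21 MHC class I and interferon genes, whose median was -0.30, and 4 were higher in DLP with the block.

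**Figure D3:**
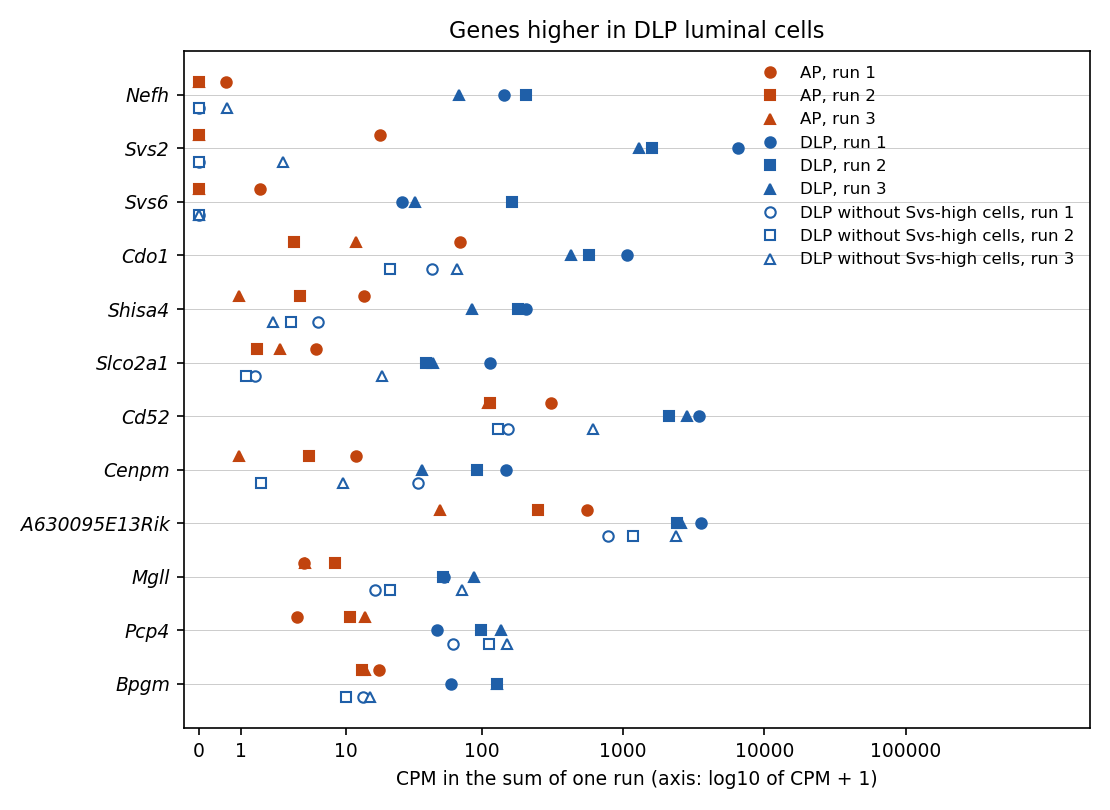
CPM (x axis, spaced by the log10 of CPM + 1) of the 12 genes (y axis) with the largest log2 fold change towards DLP, in AP (orange), DLP (filled blue) and DLP without Svs-high cells (open blue) for runs 1 (circle), 2 (square) and 3 (triangle). Open symbols of *Nefh*, *Svs2*, *Svs6* and *Bpgm* fall to the AP levels, and those of *Pcp4* stay with the filled ones.

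Other called genes were higher in DLP also in cells that were not Svs-high. *Nlrp10*, an inflammasome family gene, was at 113, 110 and 166 CPM in DLP and at 36, 15.1 and 9.27 CPM in AP (log2 fold change -2.86, SE 0.34, adjusted p = 0.00802). No DLP UMI of it lay in Svs-high cells, and in Tgm4-high cells the log2 fold change was -3.99 (adjusted p = 3.09e-05). *Pcp4*, a calmodulin regulator, was at 47.3, 97.6 and 137 CPM in DLP and at 4.00, 10.8 and 13.9 CPM in AP (log2 fold change -3.46, SE 0.51, adjusted p = 0.02). It passed without the Svs-high cells (-3.61) and in Tgm4-high cells (-2.94).

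*Azgp1*, a secreted zinc-binding glycoprotein of the MHC class I fold, was at 137, 104 and 147.6 CPM in DLP and at 68.0, 49.7 and 42.7 CPM in AP (log2 fold change -1.42, SE 0.17, adjusted p = 0.00775). *Qsox1*, an oxidase that forms disulfide bonds in secreted proteins, was at 158, 103 and 116 CPM in DLP and at 36.6, 20.9 and 26.0 CPM in AP (log2 fold change -2.34, SE 0.21, adjusted p = 0.00285). *Ggt1*, gamma-glutamyltransferase, which breaks down glutathione, was at 149, 63.3 and 84.2 CPM in DLP and at 13.7, 20.6 and 20.4 CPM in AP (log2 fold change -2.51, adjusted p = 0.0156). All 3 also passed without the Svs-high cells, at -1.59, -1.62 and -2.12, and in Tgm4-high cells, at -2.05, -2.25 and -2.10.

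*Creb3l1*, an ER-bound transcription factor of secretory cells, had a log2 fold change of -1.90 (SE 0.28, adjusted p = 0.0207) and -2.42 in Tgm4-high cells (adjusted p = 0.00459). *Slc45a3*, the androgen-responsive gene for prostein, was at 69.3, 62.3 and 67.1 CPM in DLP and at 45.7, 37.0 and 30.6 CPM in AP (log2 fold change -0.95, SE 0.16, adjusted p = 0.0327). *A630095E13Rik*, a gene of the PATE family (Pate14 in RefSeq), was at 3565, 2393 and 2576 CPM in DLP and at 556, 251 and 50.1 CPM in AP (log2 fold change -3.55, adjusted p = 0.0481). Svs-high cells held 47.6% of its DLP UMIs, and in Tgm4-high cells it was at -3.86 (adjusted p = 0.0057).

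Leaving cells out also brought differences out. *Elf5*, an ETS transcription factor of glandular epithelium, was at 42.9, 21.9 and 25 CPM in AP and at 34.6, 12.3 and 12.9 CPM in DLP (log2 fold change 0.54, adjusted p = 0.775), but 82.1% of its DLP UMIs lay in Svs-high cells. Without them it was 2.92 higher in AP (adjusted p = 0.0118), and 3.04 in Tgm4-high cells (adjusted p = 0.00251). In Tgm4-high cells *Msmb* was higher in DLP, with a log2 fold change of -5.75 (adjusted p = 0.014). So were *Gpx3*, a secreted glutathione peroxidase, at -5.45 (adjusted p = 0.0078) and *Pigr*, which carries immunoglobulins across the epithelium, at -2.28 (adjusted p = 0.00636). *Mme*, the membrane peptidase neprilysin, was at -1.67 (adjusted p = 0.00983) and *Sox9*, a transcription factor of prostate budding, at -1.23 (adjusted p = 0.0172). These 5 DLP genes did not pass in all gated cells without the block, where their adjusted p ranged from 0.0849 for *Gpx3* to 0.291 for *Msmb*. Among the Tgm4-high cells, 7 in DLP and 1 in AP were also Msmb-high. How much of the Tgm4-high sums of these genes came from such cells was not tested.

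**Figure D4:**
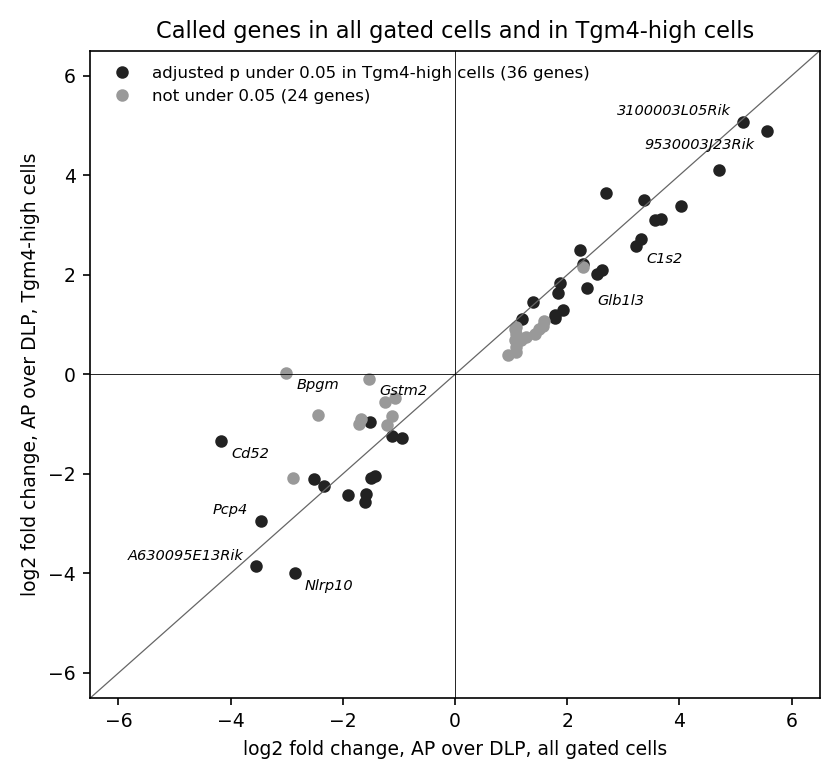
Log2 fold change of AP over DLP in all gated cells (x axis) and in Tgm4-high cells (y axis) for the 60 called genes tested in both; 24 called genes were not tested in Tgm4-high cells. Black points (36 genes) had an adjusted p under 0.05 in Tgm4-high cells, grey points (24) did not, and the diagonal marks equal values. The direction was the same for 59 genes, all but *Bpgm*.

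The best-known secretory genes did not pass edgeR's test without the block in all gated cells. *Tgm4* was at 16031, 12744 and 13604 CPM in AP and at 7711, 6799 and 10188 CPM in DLP (log2 fold change 0.64, SE 0.25, adjusted p = 0.468). Its sums did not overlap, and with the block it passed (0.65, SE 0.09, adjusted p = 0.00354), as it did with DESeq2 without a block (0.65, adjusted p = 0.0451). *9530053A07Rik*, an Fc-gamma-binding-protein-like gene (FCGBP in RefSeq), was at 32741, 21052 and 28599 CPM in AP and at 11913, 10439 and 14544 CPM in DLP, and passed with the block (1.01, adjusted p = 0.00036, against 0.198 without it). Without a block it passed with DESeq2 (1.03, adjusted p = 0.000175) and with the study's barcode thresholds (1.30, adjusted p = 0.0483). Within Tgm4-high cells *9530053A07Rik* had a log2 fold change of 0.38 (adjusted p = 0.621, and 0.089 with the block). *Tgm4*, which chose those cells, was at 0.01 there.

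*Msmb* was at 49.6, 7122 and 15549 CPM in DLP and at 4.57, 255 and 150 CPM in AP. It was higher in DLP within each run, but the level moved so far between runs that the groups overlapped (log2 fold change -5.83, SE 1.84, adjusted p = 0.291, and -5.43, SE 0.45, adjusted p = 0.000307 with the block). *Defb50*, a beta-defensin, was at 1861, 11348 and 34327 CPM in DLP and at 154, 2810 and 2540 CPM in AP (adjusted p = 0.441, and 0.000445 with the block). In immune-gated cells of runs 1 and 2, which should not make them, *Msmb* was at 1.25 and 28.8 CPM, *Defb50* at 6.23 and 67.0 CPM and *Tgm4* at 54.8 and 105 CPM.

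*Pbsn* was at 10097, 8180 and 8901 CPM in AP and at 8434, 7863 and 15748 CPM in DLP (log2 fold change -0.37, SE 0.31, adjusted p = 0.826, and 0.29 with the block). It passed, higher in DLP, in the blocked fits of Tgm4-high cells (-0.71, adjusted p = 0.000284) and without Svs-high cells (-0.48, adjusted p = 0.0339). *Sbp* ranged from 15757 to 106892 CPM in AP and from 21444 to 144483 CPM in DLP, and *Spink1* from 3062 to 33903 and from 8213 to 52173 CPM, higher in DLP in runs 1 and 2 and in AP in run 3.

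**Figure D5:**
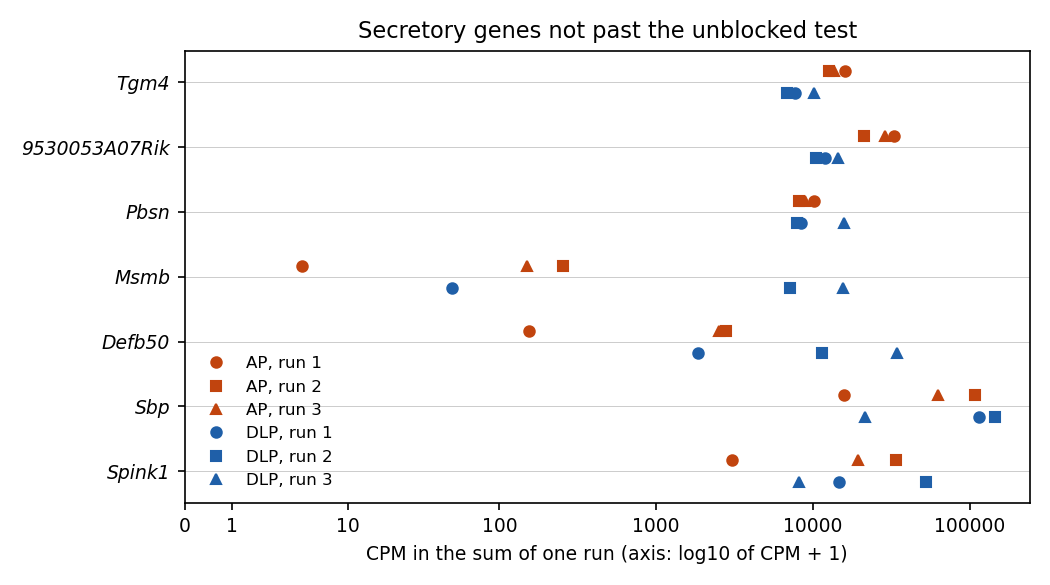
CPM (x axis, spaced by the log10 of CPM + 1) of secretory genes (y axis) that did not pass edgeR's test without the block in all gated cells, in AP (orange) and DLP (blue) of runs 1 (circle), 2 (square) and 3 (triangle). *Tgm4* and *9530053A07Rik* do not overlap between lobes, *Msmb* and *Defb50* spread over more than 10-fold within DLP, and *Sbp* and *Spink1* are mixed.

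Of 18 proximal luminal markers tested, *Runx1* among them, none passed edgeR's test without the block in all gated cells, and 15 were below 0. In Tgm4-high cells 7 were tested, and *Tspan8* and *Krt19* passed, higher in DLP. *Runx1* was at 24.6, 15.1 and 14.8 CPM in AP and at 19.6, 22 and 14.0 CPM in DLP (adjusted p = 0.934). *Psca* followed the run and not the lobe, at 1628, 204.9 and 1.85 CPM in AP and at 1137, 192 and 0.537 CPM in DLP (adjusted p = 0.998). *Krt4* (0.30, adjusted p = 0.983) did not pass either, nor did the surface genes *Dpp4* (0.00, adjusted p = 1) and *Cd24a* (0.07, adjusted p = 0.987).

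The gene lists were read by counts and medians. Without the block, 0.983% of all genes tested were called, and their median log2 fold change was -0.01. Counts with the block stand against 4.05% of all genes called with it, 1.42% higher in AP and 2.63% higher in DLP. Of each cluster list of the study, only the first 20 genes were used. For its *Tgm4*-expressing cluster Lum-B all 20 were tested. Of these, 5 were higher in AP (*Glb1l3*, *C1rb*, *Gm37223*, *Gsdma* and *Fkbp11*) and none in DLP, with a median of 0.52. *Gsdma*, a pore-forming gasdermin, and *Fkbp11*, an ER folding enzyme, had log2 fold changes of 1.08 and 1.09. Of 18 genes tested of the *Msmb*-expressing cluster Lum-C, 4 were higher in DLP (*Mgll*, *Nucb2*, *B2m* and *Pcp4*) and none in AP, with a median of -1.75 and all 18 below 0. Without the Svs-high cells the Lum-C calls went from 4 to 1 (*Pcp4*) and the Lum-B calls from 5 to 3. With the block these counts were 10 higher in AP and 1 in DLP for Lum-B, and 12 higher in DLP for Lum-C. Both lists were chosen by the study on these samples and are not independent evidence of direction. Of the *Sbp*-expressing Lum-A list, 2 of 20 were higher in DLP (*Nucb2* and *Azgp1*), or 1 (*Azgp1*) without the Svs-high cells, and of the proximal Lum-D list, 0 of 18 were called, with medians of -0.59 and -0.74; with the block 4 and 7 were higher in DLP. A list of 20 proximal luminal markers, 18 of them tested, shares many members with the Lum-D list and is not a second reading. It gave no call and a median of -0.50, and 4 higher in DLP with the block. Of these 4, *Krt19*, *Tspan8* and *Anxa1* were also among the Lum-D calls with the block. Of the 5 seminal vesicle markers tested, *Svs2* and *Svs6* were called and all 5 passed with the block, higher in DLP.

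Of 26 secreted prostatic proteins tested, 3 were higher in AP (*C1s2*, *Glb1l3* and *C1rb*) and 3 in DLP (*Ceacam10*, *Azgp1* and *Glb1l2*); with the block, 4 and 12. The list's median was -1.08. *Ceacam10*, a secreted adhesion protein, had 76.8% of its DLP UMIs in Svs-high cells. Of 8 antimicrobial genes none was called, and 3 were higher in DLP with the block (*Defb50*, *Pigr* and *Wfdc3*). Their median was -1.44. Of 42 ER folding and secretion genes, *Fkbp11* was higher in AP and *Ero1lb* in DLP, 83.4% of the latter's DLP UMIs lying in Svs-high cells, and neither passed without those cells. The list's median was 0.17, and with the block 6 were higher in AP.

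Of 30 glutathione and antioxidant genes, 3 were higher in DLP (*Gstm2*, *Ggt1* and *Gstm7*), and 1 of them, *Ggt1*, without the Svs-high cells. Of 32 lipid genes, *Mgll* and *Acsl1*, a monoglyceride lipase and an acyl-CoA synthetase, were higher in DLP; without the Svs-high cells neither passed and *Scd1*, a desaturase, did (-1.64, adjusted p = 0.0466). Of 12 polyamine genes, *Ass1* was called higher in DLP, with 58.2% of its DLP UMIs in Svs-high cells and no call without them, and 5 passed with the block. The medians of these 3 lists were -0.42, -0.16 and -0.07. No member passed among 16 genes of the integrated stress response, 19 of zinc and citrate handling, 16 of ion and water transport and 26 immediate early and heat shock genes. The medians of the first 3 were 0.47, -0.04 and -0.61, and with the block 3, 2 and 4 members passed. The last list had 24 of 26 members below 0 and a median of -0.34, and 6 were higher in DLP with the block, among them *Fos* and *Klf6*.

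Of 17 genes tested in the androgen response list, *Slc45a3* alone was called, with 5 called with the block and a median of -0.37. Of 31 transcription factors of the lineage list, *Creb3l1* alone was called, with 4 called with the block and a median of -0.15. *Hoxb13*, the posterior HOX gene of the prostate, was at 377, 357 and 287 CPM in AP and at 297, 342 and 268 CPM in DLP (log2 fold change 0.01, adjusted p = 1), and *Foxa1*, a pioneer factor of luminal cells, had a log2 fold change of -0.15 (adjusted p = 0.93).

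Outside that list, *Hoxb9* was at 74.9, 52.4 and 67.7 CPM in AP and at 27.7, 23 and 26.3 CPM in DLP (log2 fold change 1.19, SE 0.18, adjusted p = 0.025), and passed in Tgm4-high cells too (1.11). *Hoxb8* was higher in DLP (-2.27, adjusted p = 0.0481), with 88.9% of its DLP UMIs in Svs-high cells. The 2 HOX genes were looked up after the calls were seen.

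Basal, endothelial and fibroblast markers gave the makeup of the sums. The 12 basal markers summed to 458 to 1283 CPM in AP and 424 to 614 CPM in DLP, and none of the 7 tested was called. The 8 endothelial markers summed to 25 to 41.7 CPM in AP and 4.62 to 13.3 CPM in DLP, and the AP sums were mostly *Emcn* (endomucin), at 36, 22.5 and 21.3 CPM in AP and 1.15, 4.09 and 0 CPM in DLP (adjusted p = 0.0378, and 0.0607 without the Svs-high cells). *Cldn5* and *Tie1* were at 0 in both lobes. The summed fibroblast markers stayed at or under 53.7 CPM in every sum and the 1 tested was not called, and the 6 ventral secretory markers gave no call, with a median of -0.53.

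The RFP- basal cells of the same sorts (326 in AP, 357 in DLP) gave 0 of 7581 genes called, with 227 at an unadjusted p under 0.05. DESeq2 called 1, and edgeR with the block called 46 (0.607%), 21 higher in AP (0.277%) and 25 in DLP (0.33%). In the blocked fit the basal calls included AP genes of the luminal cells, *9530003J23Rik* and *C1rb*, and *Msmb* on the DLP side. *9530003J23Rik* was at 123, 97.3 and 16.6 CPM in basal sums of AP and at 2.52, 3.00 and 1.74 CPM in those of DLP, against 3.74 and 1.86 CPM in immune-gated cells of runs 1 and 2. Whether these are transcripts of basal cells or RNA of luminal cells in the same lobe suspension was not tested.

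The lobe difference itself differed between luminal and basal cells for 3 of 9555 genes (0.0314%), 1 of them with the luminal difference more towards AP (0.0105%) and 2 more towards DLP (0.0209%). With the block these were 35 genes (0.366%), 5 (0.0523%) and 30 (0.314%). Both fits took the luminal and basal sums of a lobe and run as independent, although they came from the same sort. The block covered run only. *Cbs*, cystathionine beta-synthase, was at 57.7, 34.2 and 52.1 CPM in DLP luminal and at 7.43, 7.67 and 4.64 CPM in AP luminal cells (log2 fold change -2.90, adjusted p = 0.00285), whereas basal cells had 103, 71.5 and 84.9 CPM in AP and 101, 106 and 82.1 CPM in DLP. The difference between these lobe effects was -2.69 (SE 0.30, adjusted p = 0.00475). *Slco2a1* (-4.15) and *Rhoj* (4.80) were the others, and none of the 3 passed once the Svs-high cells were left out.

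In the ventral lobe (VP), RFP- luminal cells numbered 19, 63 and 45, and their levels stand beside those of AP and DLP without a test. *9530003J23Rik* was at 637, 1.27 and 0 CPM in VP and *Tgm4* at 2391, 98.8 and 182 CPM, so that the small VP sum of run 1 stood apart from the other 2. *Pcp4* was at 20.2, 123 and 65.1 CPM in VP and *Azgp1* at 215, 166 and 98.3 CPM, so that each overlapped the DLP range. *Nlrp10* was at 32.9, 4.46 and 0 CPM in VP, below each DLP sum.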

How the data were processed

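UMI counts and MULTI-seq barcode counts were analysed from 3 adult libraries (10x 3′ v3). The authors ran Cell Ranger 3.1.0 on mm10 and deposited raw, unnormalized counts for 31053 genes, so no earlier scaling acts on them. The submitters' notes also name Seurat 3.1.5. In runs 1 and 2 the barcode of intact DLP RFP+ cells had a library median of 0 and was not used. The study reports that this labelling failed and ran a doublet caller on those runs. That caller was not used here. A doublet of such a cell with a member could thus not be seen from the barcodes of runs 1 and 2. The upper limit of 7500 was applied to detected genes; the study's methods give it for UMIs, which was run as an alternative. Barcode counts were divided by each barcode's library median, and a cell was assigned where the top ratio was at least 3 and at least 2 times the second. Here edgeR 4.0.16 (filterByExpr, TMM, quasi-likelihood) tested the 6 sums, each of at least 10 cells, with Benjamini-Hochberg adjustment and log2 fold changes as AP over DLP. Each SE was obtained from the fitted change and its F statistic. DESeq2 1.42.0 was an alternative. A p-value measures the spread between runs of pooled mice. For the luminal minus basal difference it also rests on sums of the same sort taken as independent. Total UMIs per sum ran from 866177 to 3781842. Lobes of a run share mice and library. Their deviations from the lobe means correlated at 0.496, 0.277 and 0.403, so run was also used as a block. Tested on simulated data for the luminal comparison (8548 genes, 200 changed), edgeR recovered 96% of 4-fold and 40% of 2-fold changes. In the simulated basal comparison (7581 genes) it recovered 98% and 32%. The simulated counts had no run effect, and genes of the same level were given the same spread. These shares therefore do not hold for genes that varied more between runs. Named genes were those the study names, the 12 largest changes each way (called, same direction in every run, at least 50 CPM) and up to 4 called members of each of 26 lists. Some genes of this rule are not reported here. Other genes were named for a role or after their values were seen. Members and lists were chosen with earlier results of these data known. The Tgm4, Svs and Sbp limits were set after the data were seen. Positions are from GENCODE vM21. Python 3.11.15, pandas 2.3.3 and scipy 1.17.1 were used. The explant library was not analysed here.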

Additional observations from a re-analysis of the deposited data

Results flagged for a closer look

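The test of the difference between luminal and basal lobe effects (AP over DLP, edgeR, log2 scale) passed for 3 genes: *Cbs* at -2.69 (adjusted p = 0.00475), *Slco2a1* at -4.15 (adjusted p = 0.0319) and *Rhoj* at 4.80 (adjusted p = 0.0363). *Cbs* and *Slco2a1* were lower in AP than in DLP luminal sums in 3 of 3 runs, with basal lobe effects of -0.16 and -0.30. *Rhoj* was higher in AP luminal sums in 3 of 3 runs, with a basal lobe effect of -0.15 and 2 UMIs in the DLP luminal sums. All 3 passed with the replicate block too (adjusted p from 0.00291 to 0.00864). Svs-high cells held 33.6% of the DLP luminal UMIs of *Cbs* and 86.5% of those of *Slco2a1*, and none of *Rhoj*.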

How the results depend on the processing

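The pairing of lobes by run, taken up as a replicate block, raised the luminal calls to 121 higher in AP and 225 in DLP, the basal calls to 21 and 25, and the calls of the luminal minus basal difference to 5 and 30; among the named genes it turned the direction of *Krt4* alone (0.30 to -0.05, neither called). Without the low-count filter the 3 comparisons gave 86 and 175, 80 and 22, and 6 and 33. DESeq2 gave 61 and 101, 1 and 0, and 5 and 20. The study's barcode thresholds gave 59 higher in AP, and leaving out *Krt4*/*Psca*-positive cells gave 74 higher in DLP. Thinning to 3000 UMIs per cell gave 5 and 16. The limit of 7500 put on UMIs per cell, as the study's methods word it, in place of genes left 2 sums per lobe, since run 1 kept under 10 cells, and gave 0 and 0. Of the alternatives added after the data were seen, leaving out Svs-high cells gave 13 higher in DLP (121 and 182 with the block) and 0 and 0 for the luminal minus basal difference, and Tgm4-high cells alone gave 80 higher in DLP (152 and 265 with the block). Leaving out 1 replicate each gave 2 to 22 genes higher in AP and 1 to 46 in DLP, 0 to 1 and 0 in basal cells, 0 and 0 to 5 for the difference, and Msmb-high shares of 0.725 to 1.90% in AP and 8.94 to 16.8% in DLP. Directions that turned by more were, with the 7500-UMI limit, *Tgm4* (-0.42), *9530053A07Rik* (-0.65), *Gm37223* (-0.15), *Fut9* (-0.45), *Fgl1* (-0.30) and *Gsdma* (-0.36). In Tgm4-high cells they were *Spink1* (0.86, block 1.38), *Sbp* (0.71, block 1.20), *Dpp4* (-0.24, block -0.27) and *Bpgm* (0.032, block 0.12). Without Svs-high cells they were *Bpgm* (0.10, block 0.14) and *Ero1lb* (0.10, block 0.0023). The others were *Dpp4* after thinning (-0.21), *Runx1* with 1 replicate left out (-0.39 to 0.15, above 0 without replicate 2) and *Svs6* with the study's thresholds (0.35). The cause was not tested. Total UMIs without TMM moved the median of all genes by 0.15. Over all results and alternatives, 862 stayed on their side of the threshold, 170 lost the call and 21 gained it; the first count includes turns of sign by less than 1 SE in uncalled values of *Psca*, *Krt4*, *Dpp4*, *Cd24a* and *Spink1*. With 3 sums per lobe, changes near 2-fold were mostly below what the unblocked test could call. Larger changes of genes that varied widely between runs could also go uncalled, as did *Msmb* (-5.83, adjusted p = 0.291 in edgeR's unblocked test).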
